A study of Homo sapiens with 12 samples.

Results

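Interferon-stimulated and DNA-sensing genes were examined as a list of 40 named genes, taken by gene symbol from the deposited count table, which holds 25343 genes. The list spans cytosolic DNA and RNA sensors, the transcription factors of the interferon response, the ISG15 conjugation system, ADP-ribosylating proteins and antiviral effectors, and all 40 symbols were found. Messenger RNA was sequenced from SW48, a human colorectal cancer line, and OVK18, a human ovarian cancer line, 72 h after transduction of a single guide RNA. All cells, the controls included, expressed Cas9 and received a guide. The control guide sgCh2-2 is aimed at an intergenic site on chromosome 2, and sgWRN2 and sgWRN3 at WRN, which encodes a RecQ helicase with an exonuclease domain. Each line and guide is represented by 2 libraries, A and B, which gives 6 groups and 12 libraries. The sources used here do not say whether A and B were separate cultures or whether the cells were clones, so p-values measure the spread between these libraries, which may be technical. In bulk RNA a change in a level cannot be told apart from a change in the share of cells that carry it.

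Cells detect DNA outside the nucleus through cGAS (gene MB21D1), whose cyclic dinucleotide product activates STING (gene TMEM173), which recruits the kinase TBK1 to phosphorylate the transcription factor IRF3. RNA in the cytosol is detected by RIG-I (DDX58) and MDA5 (IFIH1), which reach TBK1 and IRF3 through the adaptor MAVS. Both routes induce type I interferon, whose receptor signals through JAK1 and TYK2 to a transcription factor complex that holds STAT2 and IRF9. That complex binds the interferon-stimulated response element in the promoters of the genes listed here, many of which also respond to IRF3 or IRF1 without interferon.

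Levels are given as CPM, counts scaled to library size with TMM factors, unless a sentence names FPKM. The test behind each adjusted p is edgeR's quasi-likelihood fit of 14199 genes, in which a gene is called under 0.05. Total counts ran from 15423162 to 32581625 per library. The targeted WRN transcript stood at 91.2 and 112 CPM in the SW48 controls and at 34.1 to 56.9 CPM in the 4 WRN-guide libraries. For OVK18 the values were 32.0 and 39.8 CPM in the controls and 21.0 to 23.0 CPM with the WRN guides. Every WRN-guide library of a line lay below both of its controls. Over both guides the log2 difference was -1.27 in SW48 (adjusted p = 0.00409) and -0.71 in OVK18, which did not pass (adjusted p = 0.206). The A to B differences of sgCh2-2 and sgWRN3 correlated across genes (0.57 in each line). Those of sgCh2-2 and sgWRN2 correlated negatively (-0.19 in SW48 and -0.24 in OVK18). Between the lines, the sgWRN2 differences correlated with each other (0.51), as did those of sgCh2-2 (0.49), while OVK18 sgWRN2 ran against SW48 sgCh2-2 (-0.46). The sgWRN2 libraries thus stood apart in that respect. An effect of the sgWRN2 guide cannot be told apart from one of how its libraries were handled, which was not tested. Intestinal markers summed to 804 to 903 CPM in SW48 and to 0.384 to 1.02 CPM in OVK18. Mullerian and ovarian markers summed to 103 to 119 CPM in SW48 and 74.3 to 81.7 CPM in OVK18, where WFDC2 was at 0 in every library and PAX8 in both the control and the sgWRN3 groups. The 10 leukocyte and endothelial markers summed to at most 14.2 CPM in any library, with the T cell gene CD3E and the endothelial gene PECAM1 at 0 throughout.

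No interferon-stimulated or DNA-sensing gene was called as higher with the WRN guides in either line at 72 h. Over both guides, 0 of the 34 listed genes that passed the filter were called in SW48, where 0.866% of all tested genes were called. In OVK18 0 of 34 were called, where 0.0282% of all tested genes were called. The filter took all 6 groups together, so some of the 34 had few or no counts in 1 line. IRF7, with no count in OVK18, could not be called there, and HERC5 had 11 counts over the SW48 libraries. A mean of at least 10 counts per library in the line left 29 genes in SW48 and 28 in OVK18. Of those, 0 were called, against 123 of 12392 and 4 of 12825 of all tested genes past that limit. DESeq2 called 1 listed gene, OAS3, as lower in SW48 and 0 in OVK18, and limma-voom called 0 in both. At an unadjusted p under 0.05 there were 4 listed genes in SW48 (OAS3, CMPK2, IFIH1 and BST2; 7.84% of all genes had such a p) and 2 in OVK18 (CMPK2 and DTX3L; 4.04% of all genes). The median log2 fold change of the 34 genes was -0.01 in SW48 and -0.05 in OVK18. Over the 29 and 28 genes past the count limit it was -0.04 and -0.03. Without the sgWRN2 libraries 0 of the tested genes on the list were called in either line, and 1 was in OVK18 (RNF213) when A and B also entered as blocks. Here and below, the share of all genes called is not given for alternative fits, so their counts stand without a base rate. In the plot of levels by library the columns of a line look alike, and the contrast lies between the lines.

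**Figure D1:**
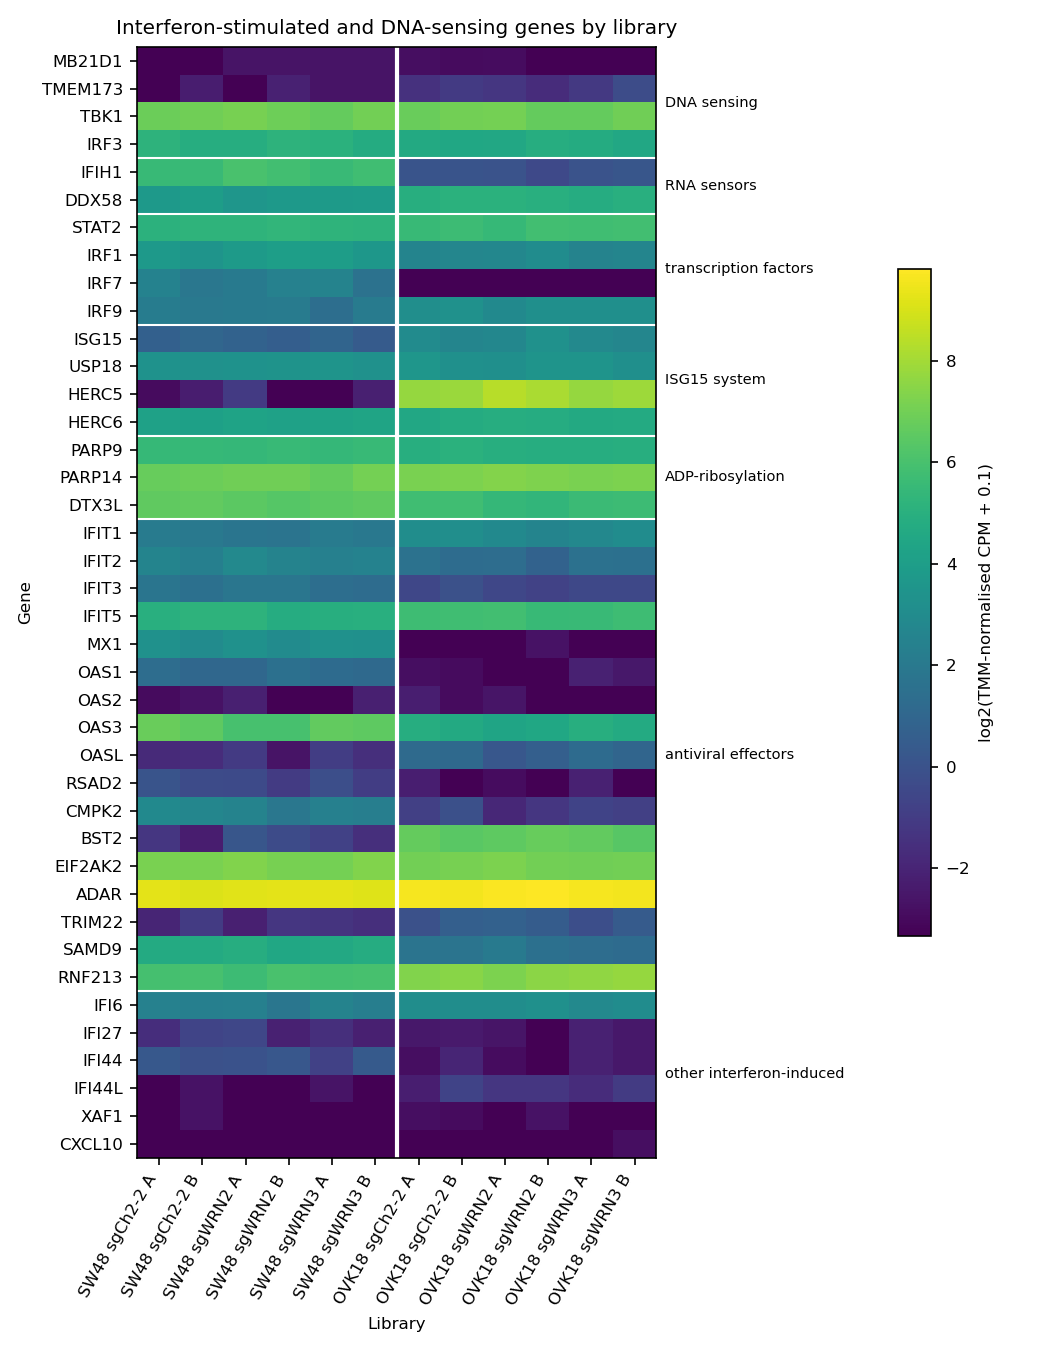
Levels of the 40 genes (rows, by role) in the 12 libraries (columns), as the log2 of TMM-normalised CPM plus a small offset (colour scale). Within a line the WRN-guide columns resemble the control columns, whereas HERC5 and BST2 are high only in OVK18 and MX1, IRF7 and IFIH1 are high in SW48.

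The intervals around these changes bound the size of an induction that the libraries could have missed. The plot of intervals is limited to genes with a mean of at least 10 counts per library in the line, a limit chosen after the values were seen, which leaves 29 genes in SW48 and 28 in OVK18. In SW48 their log2 fold changes ran from -0.59 (RSAD2) to 0.25 (IFIH1), and 27 of the 29 intervals at the 95% level lay wholly within a 2-fold change in either direction. The highest upper bound was 0.69, for IFI44. In OVK18 they ran from -0.95 (CMPK2) to 0.24 (HERC5), 26 of 28 intervals lay within a 2-fold change, and the highest upper bound was 0.77, for TRIM22. A doubling of any of these genes over both guides therefore lies outside its interval, gene by gene and without adjustment for the number of genes. For the guides taken singly the bounds were wider. With sgWRN2 the highest upper bound was 0.95 in SW48 (IFI44) and 1.13 in OVK18 (TRIM22), which includes a doubling, and with sgWRN3 it was 0.79 (RSAD2) and 0.64 (TRIM22). Genes under this count limit carry no such bound, and BST2 in SW48 is one of them: its log2 fold change over both guides was 1.20 (0.17 to 2.24, adjusted p = 0.498), the highest of the 34 tested genes in that line.

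**Figure D2:**
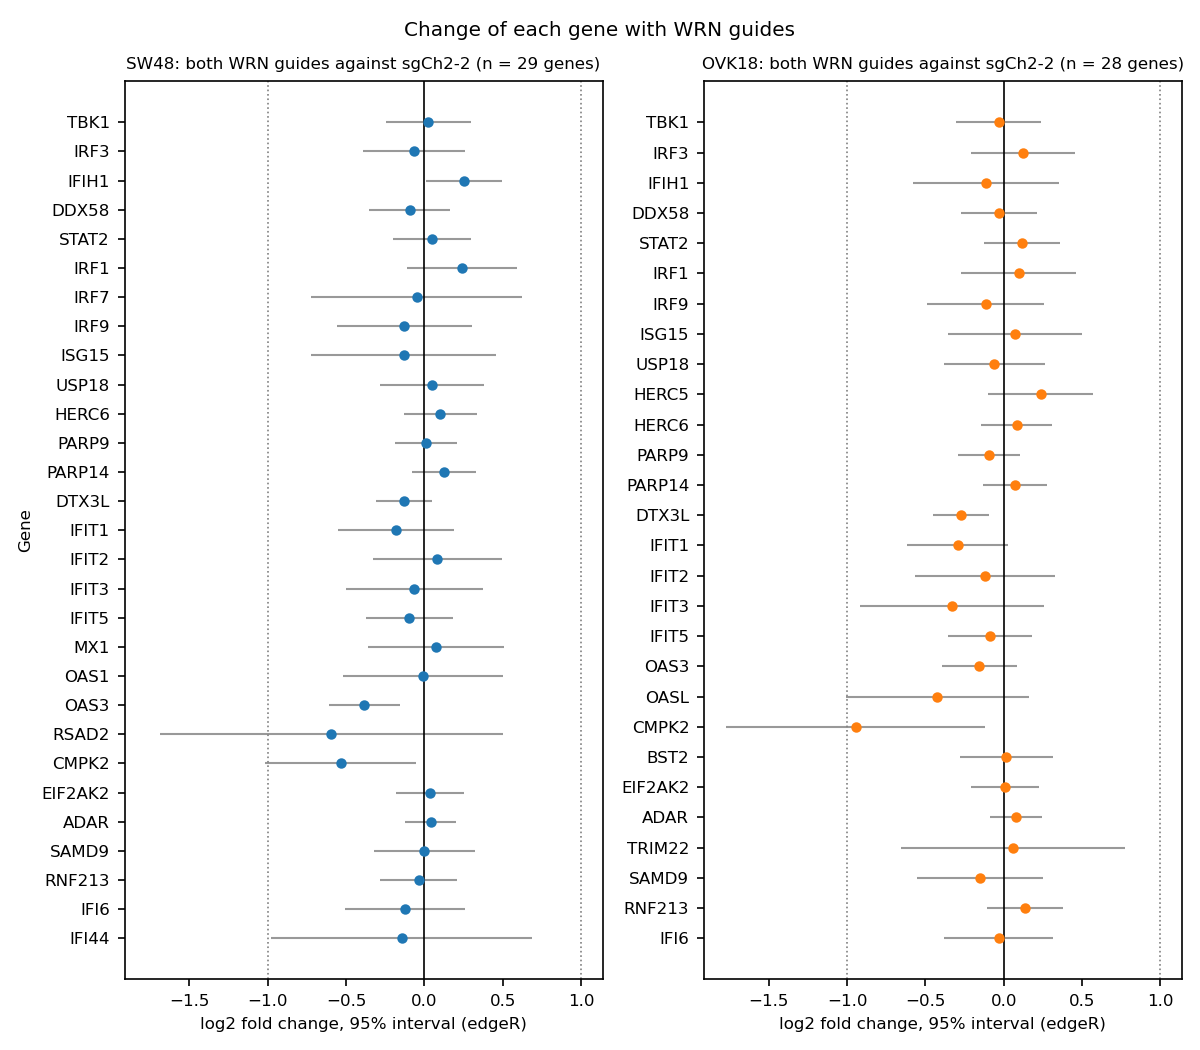
Log2 fold change (horizontal axis) of each gene with both WRN guides against sgCh2-2, in SW48 (left) and OVK18 (right); points are edgeR estimates, bars 95% intervals, and dotted lines mark a 2-fold change. Upper bounds reach 0.69 in SW48 (IFI44) and 0.77 in OVK18 (TRIM22), and the widest bars belong to genes of few counts.

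In the DNA-sensing arm, the sensor and its adaptor had almost no counts. MB21D1, the gene of cGAS, had 4 counts over the 6 SW48 libraries and 3 over the 6 OVK18 libraries, with at most 1 count in any library, and its exons overlap DDX43 on the opposite strand in GENCODE v29. Pooled over a line, that is 0.0347 CPM in SW48 (exact Poisson 95% interval 0.00945 to 0.0888) and 0.0195 CPM in OVK18 (0.00403 to 0.0571). These intervals cover counting error only. A floor of 3 counts over the 6 libraries of a line corresponds to 0.0260 CPM for SW48 and 0.0195 CPM for OVK18, so both values are at or near it.

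TMEM173, the gene of STING, had 6 counts over the SW48 libraries, with no more than 2 in any of them. In OVK18 it had 59 counts, between 4 and 19 per library, or 0.384 CPM pooled (0.292 to 0.496). Neither MB21D1 nor TMEM173 passed the filter on low counts, so neither was tested with the WRN guides. The DNA sensor IFI16 had 2 counts over all SW48 libraries and 17 over all OVK18 libraries, and AIM2 had 0 and 1. Their list, of adaptors, kinases and other sensors, was not low throughout. DDX41, from that list, ran from 38.5 to 48.7 CPM in SW48 and from 56.6 to 74.1 CPM in OVK18.

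The kinase and the transcription factor below STING were transcribed in both lines. TBK1 ran from 103 to 136 CPM in SW48 and from 105 to 132 CPM in OVK18, and IRF3 from 26.9 to 36.3 CPM in SW48 and from 22.2 to 28.8 CPM in OVK18. In each line the WRN-guide and control libraries of both genes overlapped. With both guides the log2 fold change of TBK1 was 0.03 (95% interval -0.25 to 0.30) in SW48 and -0.03 (-0.30 to 0.24) in OVK18, and that of IRF3 was -0.07 (-0.39 to 0.26) and 0.12 (-0.21 to 0.45). The IRF3 exons overlap BCL2L12 on the opposite strand in GENCODE v29, and the strand setting of the counting is not given in the sources used here, so reads of the pair may be mixed.

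Of the RNA sensors, IFIH1 was abundant in SW48 and scarce in OVK18, and DDX58 was transcribed in both. In SW48 IFIH1 stood at 46.7 and 47.2 CPM with sgCh2-2, 66.6 and 57.3 CPM with sgWRN2, and 46.8 and 54.3 CPM with sgWRN3. Both sgWRN2 libraries lay above the other 4, while sgWRN3 A lay within the range of the controls. The log2 difference with sgWRN2 was 0.40 (SE 0.129), which missed the threshold (adjusted p = 0.156), and over both guides it was 0.25 (adjusted p = 0.609). In OVK18 it stayed between 0.658 and 1.05 CPM. DDX58 ran from 12 to 15.6 CPM in SW48 and from 28.3 to 33.4 CPM in OVK18, with log2 fold changes over both guides of -0.09 (-0.35 to 0.17) and -0.03 (-0.27 to 0.21).

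Among the transcription factors, none was called with any guide. STAT2, which carries a transactivation domain of the complex with IRF9, stood at 34.9 and 37.0 CPM in the SW48 controls and 35.3 to 40.3 CPM with the WRN guides. The OVK18 values were 46.5 and 50.7 CPM in the controls and 43.6 to 56.7 CPM with the guides. IRF9, the DNA-binding partner, ran from 2.62 to 4.39 CPM in SW48 and from 7.40 to 9.81 CPM in OVK18, and IRF1, an activator that also acts without interferon, from 10.9 to 16.5 and from 5.79 to 8.27 CPM. Over both guides the log2 fold changes of STAT2, IRF9 and IRF1 were 0.05, -0.13 and 0.24 in SW48 and 0.12, -0.11 and 0.10 in OVK18, and each interval included 0. IRF1 exons overlap C5orf56 on the opposite strand in GENCODE v29. IRF7, which amplifies interferon production, ran from 2.95 to 5.73 CPM in SW48 and had no count in any OVK18 library. Its exact Poisson 95% upper limit over the OVK18 libraries was 0.0240 CPM, which covers counting error only.

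The ISG15 system tags proteins with the ubiquitin-like modifier ISG15. ISG15 itself stood at 1.51 and 1.89 CPM in the SW48 controls, 1.63 and 1.40 CPM with sgWRN2, and 1.79 and 1.27 CPM with sgWRN3, on 21 to 47 counts per library. In OVK18 the values were 8.0 and 6.29, 6.66 and 10.03, and 7.14 and 6.44 CPM in the same order of guides. The groups overlapped in both lines, and the log2 fold changes over both guides were -0.13 (-0.72 to 0.46) and 0.07 (-0.36 to 0.50). The protease USP18, which removes ISG15 and restrains the interferon receptor, kept to 9.83 to 10.97 CPM in SW48 and 9.08 to 11.73 CPM in OVK18.

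HERC5, the main ligase that attaches ISG15, had 0 to 6 counts in each SW48 library. In OVK18 it stood at 214 and 230 CPM with sgCh2-2, 340 and 279 CPM with sgWRN2, and 209 and 233 CPM with sgWRN3. Both sgWRN2 libraries were the highest of the 6. The log2 difference with sgWRN2 was 0.48 (SE 0.176, adjusted p = 0.246), and against sgWRN3 it was 0.49 (adjusted p = 0.235). Neither passed with edgeR as fitted, whereas DESeq2 gave adjusted p-values of 0.0213 and 0.0149 and edgeR without the count filter gave 0.0123 and 0.00877. Over 23 alternatives the sgWRN2 difference of HERC5 ran from 0.35 to 0.63 (adjusted p from 0.0123 to 0.612) and did not pass in 20. HERC6, the neighbouring gene of the same family, kept to 17.5 to 20.3 CPM in SW48 and 23.6 to 29.2 CPM in OVK18. The ISG15-activating enzyme UBA7, not one of the 40 genes, had 36 counts over the SW48 libraries and 17 over the OVK18 libraries, while the conjugating enzyme UBE2L6 ran from 36.2 to 46.1 and from 23.9 to 27.8 CPM.

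PARP9, PARP14 and DTX3L attach ADP-ribose or ubiquitin, and PARP9 and DTX3L form a complex that acts at sites of DNA damage and in the interferon response. PARP9 ran from 42.4 to 45.2 CPM in SW48 and from 28.7 to 33.0 CPM in OVK18, and PARP14 from 106 to 132 and from 144 to 167 CPM. DTX3L stood at 54.8 and 55.3 CPM in the OVK18 controls, 42.5 and 40.1 CPM with sgWRN2, and 49.3 and 51.3 CPM with sgWRN3. All 4 WRN-guide libraries lay below both controls, and the sgWRN2 pair was the lowest. The log2 difference with sgWRN2 was -0.41 (SE 0.0978, adjusted p = 0.0840), which did not pass, and it was -0.27 over both guides (adjusted p = 1). With DESeq2 the sgWRN2 difference of DTX3L had an adjusted p of 0.0117. It did not pass in the other 22 of 23 alternatives, in which the adjusted p reached 0.433. In SW48 DTX3L ran from 95.9 and 101 CPM in the controls to 82.3 to 98.4 CPM with the guides (-0.13 over both, -0.31 to 0.05). PARP9 and DTX3L lie head to head with overlapping exons on opposite strands in GENCODE v29, so their counts may not be fully separate.

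**Figure D3:**
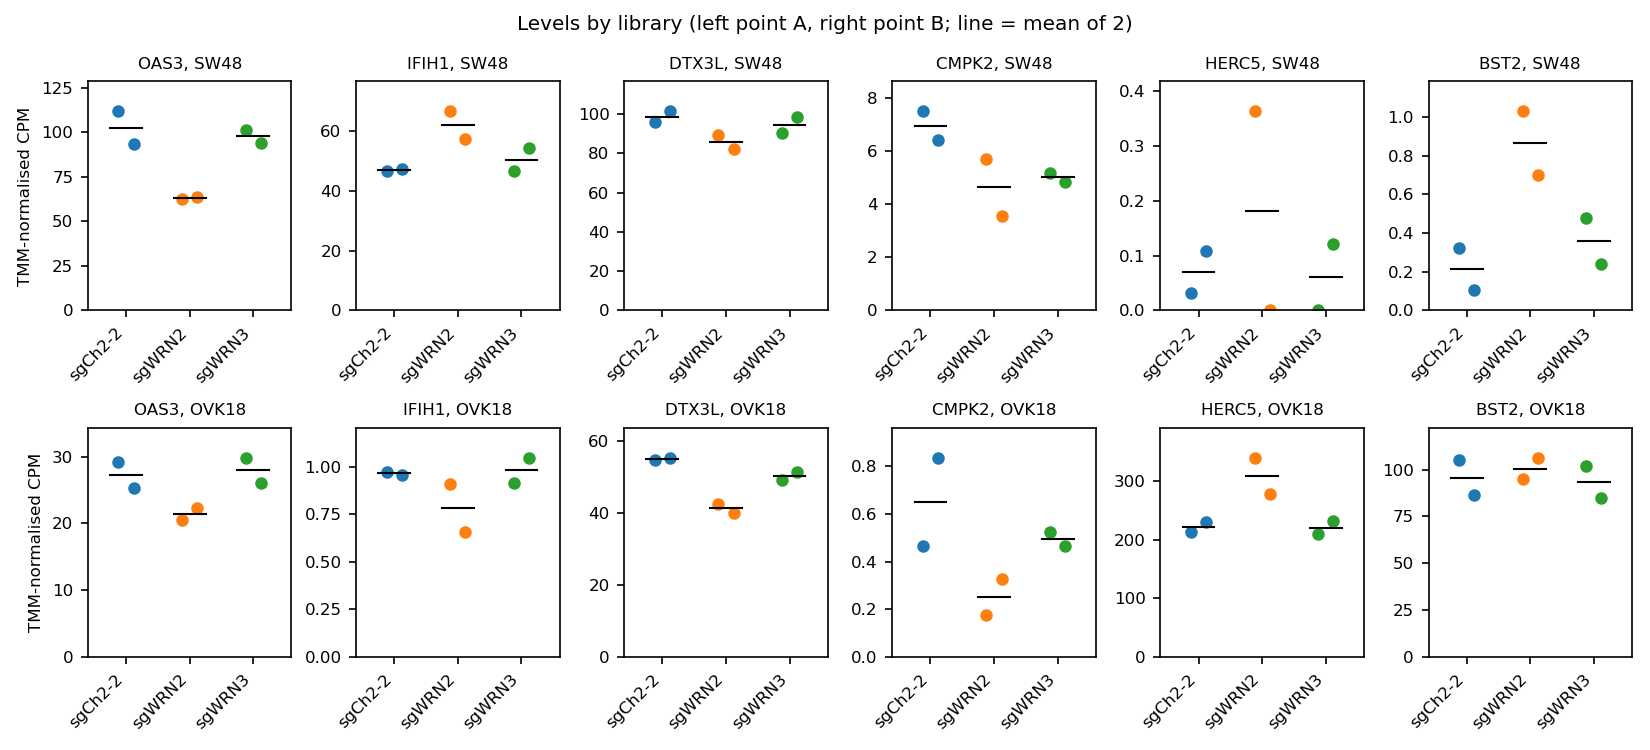
TMM-normalised CPM (vertical axes, each from 0 and scaled per panel) of 6 genes by guide in SW48 (top) and OVK18 (bottom); points are libraries A (left) and B (right), and lines the mean of 2. OAS3 with sgWRN2 lies at 62.5 and 63.8 CPM in SW48, below the other 4 libraries, and is lowest with sgWRN2 in OVK18 too.

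OAS3, 1 of the oligoadenylate synthetases that sense double-stranded RNA and activate RNase L, was the only listed gene called with a WRN guide, and it fell. In SW48 it stood at 112 and 93.3 CPM with sgCh2-2, 62.5 and 63.8 CPM with sgWRN2, and 101 and 94.1 CPM with sgWRN3. The sgWRN2 libraries lay below the other 4, and the sgWRN3 libraries lay within the range of the controls. With sgWRN2 it fell by 0.70 on the log2 scale (SE 0.123, 95% interval -0.97 to -0.43, adjusted p = 0.00808), or 1.62-fold. That made 1 of 34 listed genes called, a share near that of all genes, of which 3.08% were called and 1.95% were called lower. At an unadjusted p under 0.05 there were 4 listed genes (13.1% of all genes): OAS3, BST2, IFIH1 and CMPK2.

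With sgWRN3 alone the listed genes gave 0 calls in SW48, as did all tested genes (0%), and 0 listed genes had an unadjusted p under 0.05, against 1.85% of all genes. DESeq2 and limma-voom also called 0 listed genes with sgWRN3 in SW48. The guides themselves differed at OAS3: sgWRN2 lay 0.63 below sgWRN3 on the log2 scale (-0.63, SE 0.124, adjusted p = 0.0340), in a comparison that called 0.944% of all genes (0.655% lower) and that shares the sgWRN2 libraries with the one above. There 3 listed genes, OAS3, IFIH1 and BST2, had an unadjusted p under 0.05 (8.6% of all genes did). Over both guides the OAS3 difference was -0.38 (SE 0.104) and did not pass (adjusted p = 0.165), and without the sgWRN2 libraries it was -0.07.

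The OAS3 calls rest on 2 libraries per group. The difference of sgWRN2 from the control kept its sign when any 1 library was left out, with an adjusted p of 0.0570 without SW48 sgCh2-2 A, 0.0995 without SW48 sgWRN2 A and 0.0770 without SW48 sgWRN2 B. The difference between the guides did not pass in a fit of the SW48 libraries alone (adjusted p = 0.0600), with A and B as blocks (0.0987), with limma on the FPKM values (0.121) or without any 1 of the 4 libraries it compares (0.122 to 0.318). In OVK18 OAS3 stood at 29.2 and 25.4, 20.6 and 22.4, and 29.8 and 26.1 CPM with the 3 guides in the same order, again lowest with sgWRN2. There the sgWRN2 difference was -0.35 (SE 0.128) and did not pass (adjusted p = 0.249). Of the neighbouring genes in SW48, OAS1 stood at 2.53 and 2.00, 2.00 and 2.74, and 2.27 and 2.11 CPM, and OAS2 had 0 to 2 counts per library.

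The promoter of OAS3 is shown because it is the listed gene that was called. The sequence is from RefSeq, build GRCh38.p14, covers the 250 bases before the start of the transcript (chr12:112938224-112938473, plus strand), and carries in capitals each match, on either strand, to the core of the interferon-stimulated response element, GAAA, any 2 bases and GAAA again.
OAS3: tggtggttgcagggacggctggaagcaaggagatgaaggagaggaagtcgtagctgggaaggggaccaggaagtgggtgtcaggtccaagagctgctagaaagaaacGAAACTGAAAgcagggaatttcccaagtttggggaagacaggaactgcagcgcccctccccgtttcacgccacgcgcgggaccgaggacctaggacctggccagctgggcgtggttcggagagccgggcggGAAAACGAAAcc

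The other antiviral effectors were searched for the same direction in both guides. Over both guides, 1 of the 34 listed genes had all 4 WRN-guide libraries above both SW48 controls and 1 had all 4 below (6.01% and 5.33% of all genes), and in OVK18 the counts were 0 above and 2 below (2.9% and 3.84% of all genes). CMPK2, a mitochondrial nucleotide kinase that neighbours RSAD2, was the SW48 gene below. It stood at 7.50 and 6.43 CPM with sgCh2-2, 5.69 and 3.57 CPM with sgWRN2, and 5.19 and 4.82 CPM with sgWRN3. Its log2 fold change over both guides was -0.54 (SE 0.221) and did not pass (adjusted p = 0.543). In OVK18 CMPK2 had 5 to 27 counts per library and a log2 difference of -0.95 (SE 0.380, adjusted p = 1). HERC6 was the SW48 gene above, by 0.10 on the log2 scale (adjusted p = 0.983), and DTX3L and IFIT1 were the OVK18 genes below.

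IFIT1, which binds viral RNA that lacks the host cap, stood at 8.54 and 8.89 CPM in the OVK18 controls and 5.92 to 8.34 CPM with the WRN guides. Its log2 fold change was -0.29 over both guides (-0.62 to 0.03, adjusted p = 1). In SW48 it ran from 3.19 to 4.29 CPM, with a log2 fold change of -0.18 (-0.55 to 0.19). BST2, the surface protein tetherin, had 10 and 2 counts in the SW48 controls, 17 and 11 with sgWRN2, and 8 and 4 with sgWRN3. The sgWRN2 libraries had the highest CPM of the 6, at 1.03 and 0.702. The log2 difference was 1.83 (SE 0.492) and did not pass (adjusted p = 0.0764), although DESeq2 gave 0.0109 and edgeR without the count filter 0.00465. In the other 21 of 23 alternatives it did not pass, and over all 23 the log2 difference ran from 0.56 to 2.91 with an adjusted p of up to 0.486. In OVK18, where BST2 was abundant, it stood at 105 and 86.5 CPM in the controls and 84.6 to 106 CPM with the guides (0.02 over both, -0.28 to 0.31).

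MX1 in SW48 stood at 9.71 and 7.89 CPM with sgCh2-2, 10.05 and 7.85 CPM with sgWRN2, and 9.84 and 9.47 CPM with sgWRN3, and the groups overlapped. IFIT5 ran from 28.3 to 36.1 CPM in SW48 and from 45.9 to 56.0 CPM in OVK18, and SAMD9 from 22.6 to 28.6 and from 2.33 to 4.07 CPM. Over both guides in SW48 the log2 fold changes of IFIT2, IFIT3, IFIT5, MX1, OAS1 and SAMD9 lay between -0.10 (IFIT5) and 0.08 (IFIT2), and each interval included 0.

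In OVK18, sgWRN2 alone called 0 of the 34 listed genes, while 0.796% of all genes were called. At an unadjusted p under 0.05 there were 6 listed genes, against 13.9% of all genes: DTX3L, CMPK2, HERC5, OAS3, OASL and IFIT1, of which 5 were lower and HERC5 was higher. DESeq2 called 2 of them (HERC5 and DTX3L), limma-voom 0 and limma on the FPKM values 1 (HERC5). With sgWRN3 alone 0 were called, as were 0% of all genes, and 1 listed gene had an unadjusted p under 0.05, RNF213 (0.817% of all genes had such a p). DESeq2 and limma-voom called 0 with sgWRN3 in OVK18. Between the guides in OVK18 0 were called (0.747% of all genes), 6 had an unadjusted p under 0.05 (14.5% of all genes did), DESeq2 called 1 (HERC5) and limma-voom 1 (OAS1). OAS1 had no count in the OVK18 sgWRN2 libraries and 3 and 2 counts with sgWRN3.

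RNF213, a large ubiquitin ligase that coats intracellular bacteria, stood at 162 and 177 CPM with sgCh2-2, 149 and 186 CPM with sgWRN2, and 198 and 215 CPM with sgWRN3 in OVK18. Both sgWRN3 libraries were the highest, with a log2 difference of 0.28 (SE 0.128) that did not pass (adjusted p = 1). When the sgWRN2 libraries were left out and A and B entered as blocks, the same difference had an adjusted p of 0.0396. ADAR and EIF2AK2 varied little: ADAR, which edits double-stranded RNA and keeps MDA5 quiet, ran from 563 to 611 CPM in SW48 and from 767 to 895 CPM in OVK18, and EIF2AK2, the kinase PKR, from 133 to 161 and from 122 to 149 CPM. EIF2AK2 exons overlap GPATCH11 on the opposite strand in GENCODE v29. The log2 fold changes of ADAR over both guides were 0.04 (-0.12 to 0.20) in SW48 and 0.08 (-0.08 to 0.24) in OVK18.

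The remaining interferon-induced genes are often used as markers of an interferon response because they are low without it. IFI6, a mitochondrial protein that opposes cell death, ran from 3.51 to 5.67 CPM in SW48 and from 7.23 to 9.59 CPM in OVK18, with log2 fold changes of -0.12 (-0.50 to 0.26) and -0.03 (-0.38 to 0.32). IFI27 had 2 to 10 counts per library in SW48 and 0 to 3 in OVK18, and IFI44 had 8 to 35 and 0 to 5. IFI44L had 2 counts over the SW48 libraries and 50 over the OVK18 libraries, XAF1, a promoter of cell death, had 1 and 3, and the chemokine CXCL10 had 0 and 1. No library had more than 1 count of CXCL10, with or without a WRN guide.

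The effect of the WRN guides on the listed genes was also compared between the lines. The difference between the lines in the effect of both guides was called for 0 of the 34 genes, with 0.0282% of all genes called. Genes with a mean of at least 10 counts per library only in SW48 (5) or only in OVK18 (4) had few in the other line. BST2, 1 of the 4, was the 1 listed gene with an unadjusted p under 0.05 (2.75% of all genes had such a p). DESeq2 and limma-voom called 0. The OAS3 fold change in SW48 was 0.853 times that in OVK18, with a 95% interval of 0.677 to 1.07.

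The lines themselves differed widely at these genes in the absence of a WRN guide. In the control libraries 31 of the 34 tested genes were called between the lines, 16 higher in SW48 and 15 higher in OVK18, whereas 68.6% of all tested genes were called, 33.9% higher and 34.7% lower in SW48. Of the 34, 9 had a mean of at least 10 counts per library in 1 line only, 5 in SW48 and 4 in OVK18, and were bound to differ. Of the 24 genes with a mean of at least 10 counts per library in both lines, 10 were higher in SW48, 11 were lower, and EIF2AK2, USP18 and TBK1 were not called. As a share of all counts the 40 genes took 0.152 to 0.160% in SW48 and 0.199 to 0.228% in OVK18.

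**Figure D4:**
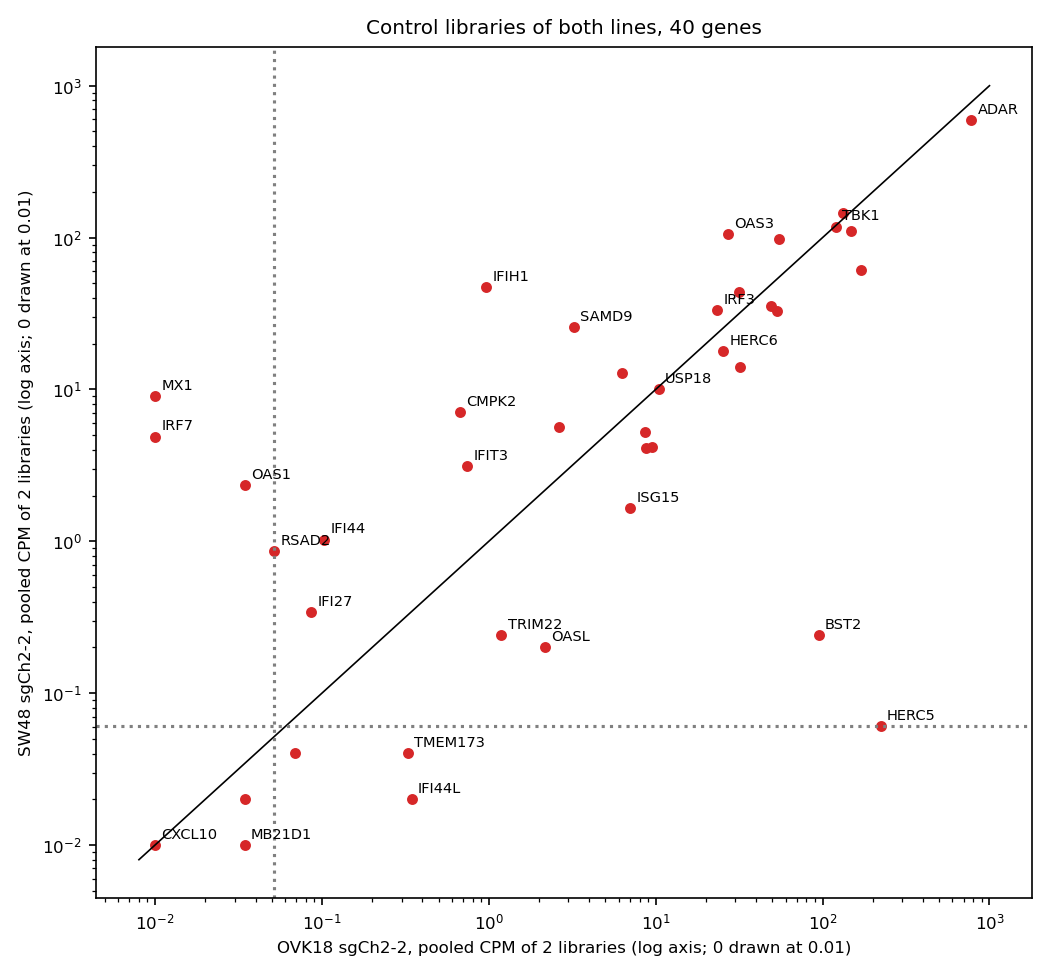
Pooled CPM of the 40 genes in the sgCh2-2 libraries of SW48 (vertical) and OVK18 (horizontal), both on log axes with 0 drawn at the left or lower edge; the solid line marks equal levels and dotted lines the floor of 3 counts. HERC5 and BST2 lie far below the line at 223 and 94.7 CPM in OVK18, and MX1, IRF7, OAS1 and IFIH1 far above it.

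Genes that were high in OVK18 and nearly silent in SW48 were led by HERC5 and BST2. The intervals of the ratios between lines cover counting error only, and replicate libraries differed by more than that (chi-square per gene from 8.35 to 24.2). HERC5 had 3 counts in the SW48 controls and 12929 in the OVK18 controls, a ratio of 3692 with a counting interval of 1263 to 17904. Its neighbour HERC6 differed by a ratio of 1.42 in the same direction (1.30 to 1.54), a log2 difference of -0.50 for SW48 against OVK18 in the edgeR fit (-0.76 to -0.24, adjusted p = 0.00266). BST2 had 12 and 5495 counts, a ratio of 392 (224 to 760). OASL, a relative of the OAS enzymes, had a ratio of 10.8 (5.68 to 23.1), TRIM22, an antiviral ubiquitin ligase, 4.93 (2.65 to 9.99), and ISG15 4.27 (3.36 to 5.48), all toward OVK18. Each was called (adjusted p = 4.41e-11 for HERC5 and 4.59e-11 for BST2).

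Genes that were transcribed in SW48 and low or at 0 in OVK18 included MX1, IRF7, OAS1, IFIH1, RSAD2 and IFI44. MX1, a dynamin-like GTPase that blocks viral nucleocapsids, had 449 counts in the SW48 controls and 0 in the OVK18 controls, so it was at least 175-fold higher, and IRF7 had 243 and 0, at least 94.6-fold higher. These folds compare the SW48 level with 3 counts over the OVK18 controls together, or 0.0517 CPM. OAS1 had 116 and 2 counts, a ratio of 67.7 (18.3 to 566), and RSAD2, which makes an antiviral nucleotide, 43 and 3 counts, a ratio of 16.7 (5.36 to 84.3). IFI44 had 51 and 6 counts, a ratio of 9.92 (4.26 to 28.3). IFIH1 differed by a ratio of 48.6 (37.3 to 64.6) on 2333 and 56 counts. OAS3 was 3.87 times as high in SW48 (3.66 to 4.10), SAMD9, an antiviral growth restraint, 7.98 times (6.84 to 9.35) and CMPK2 10.6 times (7.58 to 15.1).

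On the per-length FPKM scale, which allows levels of different genes to be compared, ADAR had the highest median of the listed genes in both lines, 69.3 in SW48 and 96.0 in OVK18. In OVK18 it was followed by BST2 (88.6) and HERC5 (46.8), and the ranges of ADAR (88.1 to 111) and BST2 (74.2 to 101) over the 6 libraries overlapped. In SW48 it was followed by TBK1 (29.7) and EIF2AK2 (27.8), whose ranges also overlapped, and then IRF3 (18.05). IFIH1 and OAS3 stood at 10.9 and 10.5 FPKM in SW48 and at 0.205 and 2.88 FPKM in OVK18.

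Several listed genes are neighbours in the RefSeq order. The OAS genes lie side by side, and in the controls OAS1 and OAS3 were higher in SW48 while OAS2 had 2 and 4 counts. HERC6 and HERC5 also lie side by side, and HERC6 was transcribed in both lines while HERC5 had no more than 6 counts in any SW48 library. CMPK2 and RSAD2 were both higher in SW48. IFIT1 and IFIT5 were higher in OVK18, and IFIT2 and IFIT3 higher in SW48, by ratios of 2.14 (1.75 to 2.63) and 4.21 (2.98 to 6.05).

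Promoter windows of RefSeq were matched for 31 of the 40 genes, DDX58 under its current symbol RIGI. Of their 43 windows of 300 bases, from 250 before to 50 after the start, 24 (55.8%) held the response element core shown for OAS3 on at least 1 strand, and matches could overlap. Of all 35116 windows of that length 3.57% did. The match is a description of the letters and not of a bound site. The windows of HERC5 and HERC6 are shown as neighbours of which 1 was nearly silent in SW48, and those of BST2 and IFIH1 as further genes with many counts in 1 line and few in the other. Of 2 such genes not shown, MX1 held 1 match in 2 of its 3 windows, and the window of OAS1 held none. The OAS1 window does hold GAAA, 1 base and GAAA again, a spacing that the searched pattern cannot match. All are of build GRCh38.p14, cover the 250 bases before the start, and have the motif in capitals. HERC5 lies at chr4:88456869-88457118 on the plus strand, HERC6 at chr4:88378602-88378851 on the plus strand, BST2 at chr19:17405631-17405880 on the minus strand, and IFIH1 at chr2:162318685-162318934 on the minus strand.
HERC5: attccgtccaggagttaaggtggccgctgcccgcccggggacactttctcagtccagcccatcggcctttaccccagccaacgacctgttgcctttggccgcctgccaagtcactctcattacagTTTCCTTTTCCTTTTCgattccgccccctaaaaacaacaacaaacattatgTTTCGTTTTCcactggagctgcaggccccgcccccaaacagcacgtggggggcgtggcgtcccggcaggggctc
HERC6: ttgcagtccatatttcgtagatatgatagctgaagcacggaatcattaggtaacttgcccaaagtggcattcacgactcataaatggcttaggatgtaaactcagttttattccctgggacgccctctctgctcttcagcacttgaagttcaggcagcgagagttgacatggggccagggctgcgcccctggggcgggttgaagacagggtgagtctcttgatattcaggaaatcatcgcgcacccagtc
BST2: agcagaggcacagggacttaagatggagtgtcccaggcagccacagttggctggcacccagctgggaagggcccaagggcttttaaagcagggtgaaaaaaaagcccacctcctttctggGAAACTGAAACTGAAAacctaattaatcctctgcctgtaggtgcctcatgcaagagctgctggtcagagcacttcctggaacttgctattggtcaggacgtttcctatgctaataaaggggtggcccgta
IFIH1: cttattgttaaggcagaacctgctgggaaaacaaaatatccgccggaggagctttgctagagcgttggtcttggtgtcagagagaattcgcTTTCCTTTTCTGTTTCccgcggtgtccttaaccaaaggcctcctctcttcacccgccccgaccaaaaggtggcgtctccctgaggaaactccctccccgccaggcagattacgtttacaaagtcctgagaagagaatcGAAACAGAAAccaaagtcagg
HERC5 and IFIH1 hold 3 matches each, of which 2 overlap, BST2 holds 2 that overlap, and HERC6 holds no match. The 300-base windows contain 21 CpG dinucleotides for HERC5, 16 for HERC6, 2 for BST2 and 12 for IFIH1.

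Other genes of the pathway give the setting of the 40. Of 86 further genes in the table, 62 were tested, and over both guides 0 were called in either line by edgeR, with 5 in SW48 and 2 in OVK18 at an unadjusted p under 0.05. Of all tested genes, 0.866% and 0.0282% were called and 7.84% and 4.04% had such a p. Of the interferon genes, IFNA1, IFNA2, IFNB1, IFNK, IFNW1, IFNG, IFNL1, IFNL2 and IFNL3 had no count in any of the 12 libraries, where the floor of 3 counts over all libraries stands at 0.0112 CPM. The only time measured was 72 h. IFNE, an epithelial type I interferon, ran from 4.53 to 8.74 CPM in SW48 and had no count in OVK18. The lambda receptor IFNLR1 followed the same division, at 16.3 to 21.5 CPM in SW48 and no count in OVK18, whereas the type I receptor IFNAR1 ran from 126 to 155 and from 121 to 170 CPM. These ranges cover control and WRN-guide libraries together. Over both guides in SW48, 0 of the 7 tested interferon and receptor genes, IFNE among them, were called. Their log2 fold changes ran from -0.09 to 0.44, with 5 positive and 2 negative. The largest was 0.62 with sgWRN2 alone and 0.27 with sgWRN3 alone.

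STAT3, which answers to interleukin-6 family cytokines, rose with sgWRN2 in SW48, from 82.1 and 75.7 CPM to 116 and 111 CPM (0.52, SE 0.0951, adjusted p = 0.00978), and stood at 92.6 and 81.8 CPM with sgWRN3. TRIM5, a restriction factor of retroviral capsids, fell with sgWRN2 in OVK18, from 104 and 106 CPM to 72.4 and 72.6 CPM (-0.53, SE 0.105, adjusted p = 0.0421), and lay below sgWRN3 there (-0.61, adjusted p = 0.0203). These were the only genes of the further 62 called in the single-guide and guide-against-guide comparisons, where 3.08% of all genes were called with sgWRN2 in SW48, 0.796% with sgWRN2 in OVK18 and 0.747% between the guides in OVK18. TREX1, the exonuclease that clears cytosolic DNA before cGAS meets it, ran from 4.48 to 7.87 CPM in SW48 and from 0.305 to 0.388 CPM in OVK18, control and WRN-guide libraries together. It is 1 of 9 tested genes of nucleic acid clearance and restraint of cGAS. Over both guides 0 of the 9 were called in either line. Their log2 fold changes were negative for 8 and positive for 1 in SW48, and negative for 6 and positive for 3 in OVK18. In SW48 2 had an unadjusted p under 0.05 by edgeR (7.84% of all genes did).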

How the data were processed

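The authors deposited a table of raw counts per gene and, separately, a table of FPKM values. Reads were processed with bcl2fastq 2.18, STAR 2.5 and Cufflinks 2.2.1 on build hg19, per the submitters' processing notes. The FPKM unit is inferred from the values and the tool, since no header names it, and the annotation and strand setting are not given in the sources used here. The 92 spike-in features, all at 0, were left out. The count analysis used edgeR 4.0.16 in R 4.3.3, with TMM scaling, filterByExpr over 6 groups (14199 genes), a robust quasi-likelihood fit of all 12 libraries (6 residual degrees of freedom) and Benjamini-Hochberg adjustment over all tested genes at 0.05. Standard errors are the log2 fold change over the square root of F, and control ratios between lines carry exact counting intervals at 95%. Alternatives were other scalings and filters, DESeq2 1.42.0, limma-voom 3.58.1, limma on log2(FPKM + 1), a replicate block and leaving out libraries. The steps were run on simulated counts, drawn with the fitted spread from a profile shared by both lines, with changes planted in SW48. Those counts carry no difference in how libraries were handled, so the run does not vouch for the calls made here. Replicate libraries differed beyond counting error (chi-square per gene 8.35 to 24.2).

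The members, gene lists and marker lists were chosen with earlier results of these data known. Genes described singly are MB21D1, TMEM173, TBK1, IRF3, ISG15, IFIT1, IRF9 and STAT2, every gene called with a WRN guide, the 2 smallest p-values per role and line over both guides, and the 5 largest called differences each way between control libraries. The others (CMPK2 in SW48, RNF213, ADAR, EIF2AK2, USP18, IFIT2, IFIT3, IFIT5, OAS2, SAMD9, IFI44L, XAF1, CXCL10 and the pathway genes) were named after their values were seen. No hg19 annotation was used, so coordinates are given only for RefSeq promoters.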

Additional observations from a re-analysis of the deposited data

Results flagged for a closer look

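OAS3 in SW48 differed between the guides: sgWRN2 lay at -0.63 on the log2 scale against sgWRN3 (SE 0.124, edgeR adjusted p = 0.0340), with 62.5 and 63.8 CPM against 101 and 94.1 CPM. The difference did not pass in the SW48 libraries alone (adjusted p = 0.0600), with a replicate block (0.0987), with limma on FPKM (0.121) or without any 1 of the 4 libraries compared (0.122 to 0.318). It drew attention because guides against the same gene gave different effects by a test of the difference itself. WRN transcript stood at 37.2 and 34.1 CPM with sgWRN2 and at 42.3 and 56.9 CPM with sgWRN3, a log2 difference of -0.48 that did not pass (adjusted p = 0.310), and its part in the OAS3 result was not tested. With 2 libraries a group, no test of outlying values was made.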

How the results depend on the processing

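Of 240 alternative counts of called genes, 217 stayed within 1.5 times the main count, and 0 of the differences followed reversed. For both guides, DESeq2 called 1 gene in SW48 (OAS3). With the sgWRN2 libraries left out and a replicate block added, 1 gene (RNF213, 0.28, adjusted p = 0.0396) was called in OVK18 for both guides and for sgWRN3, which are then the same contrast. For sgWRN2 in SW48, where the main count was 1, no count filter and DESeq2 each gave 2, and leaving out 1 library gave 0 to 1. For sgWRN2 in OVK18, where the main count was 0, no filter gave 1, DESeq2 gave 2 and limma on FPKM gave 1. For sgWRN2 against sgWRN3 in SW48, where the main count was 1, the SW48 libraries alone, the replicate block and limma on FPKM each gave 0, and leaving out 1 library gave 0 to 1. In OVK18 that comparison had a main count of 0, and no filter, DESeq2, limma-voom and limma on FPKM each gave 1. Between control libraries the count fell from 31 to 19 with a mean of at least 5 CPM, which tests fewer genes. The A minus B differences correlated at 0.57 between sgCh2-2 and sgWRN3 in each line and at -0.38 to -0.07 between sgWRN2 and either of them, so the letters were not taken to pair all libraries. The replicate block changed no other count by more than 1.5 times. The log2 difference of OAS3 with sgWRN2 in SW48 ran from -0.85 to -0.60 (adjusted p from 8.69e-06 to 0.0995) and between the guides from -0.71 to -0.58 (0.000120 to 0.318); the causes were not tested. Depth limits MB21D1, TMEM173, OAS2, IFI44L, XAF1 and CXCL10, which were too low to test.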
